A study of Mus musculus with 10 samples.

Results

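The genes described here are the 10 that encode the CXCR2 chemokines, their receptor and the colony-stimulating factors with the G-CSF receptor: Cxcl1, Cxcl2, Cxcl3, Cxcl5, Ppbp, Cxcr2, Csf3, Csf3r, Csf2 and Csf1. They were chosen by name, with earlier results of these data known, and all 10 were found among the 18012 genes of the deposited table. RNA was measured in tumours of 4T1, a mouse mammary carcinoma line, that had grown for 3 weeks in BALB/c mice. In 5 libraries (KO1 to KO5) the implanted 4T1 cells carried a knockout of 1 gene, and in 5 (WT1 to WT5) they were wild type for it, while the host mice of both groups were of the same strain. The labels do not say whether the KO cells were 1 clone or a pool, tie no library to an animal and give no implantation site, so the p-values describe the spread of these libraries only. The tumours were whole tissue with host cells in it, and in such bulk samples fewer cells of a type and less RNA per cell cannot be told apart.

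The CXCR2 ligands are small secreted chemokines that carry a glutamate, leucine and arginine motif (ELR) before their first cysteine pair and that draw neutrophils out of the blood along a gradient. G-CSF, the product of Csf3, acts through its receptor Csf3r on the bone marrow, where it drives the production and release of neutrophils. The 4T1 line is known for secreting G-CSF and for the high neutrophil counts of the mice that bear its tumours. GM-CSF (Csf2) acts on granulocytes and macrophages, and M-CSF (Csf1) on monocytes and macrophages.

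The 5 ligand genes lie in 1 cluster on mouse chromosome 5 (GRCm38), all on the plus strand, in the order Cxcl5 (chr5:90759360-90761624), Ppbp (chr5:90768518-90770063), Cxcl3 (chr5:90786103-90789600), Cxcl1 (chr5:90891241-90893115) and Cxcl2 (chr5:90903871-90905938). Pf4 lies between Ppbp and Cxcl3, and Cxcl15 between Cxcl3 and Cxcl1. The stretch of 18 bases that codes for the ELR motif and the 3 residues after it is shown because it is what the 5 ligands share. It lies in exon 2 of each, and the capitals mark the 3 codons of the motif.
Cxcl1: GAGCTGCGCtgtcagtgc
Cxcl2: GAACTGCGCtgtcaatgc
Cxcl3: GAGCTGCGCtgtcagtgc
Cxcl5: GAGCTGCGTtgtgtttgc
Ppbp: GAACTGCGCtgcagatgt
The stretches start at base 90891487 of the chromosome in Cxcl1, 90904133 in Cxcl2, 90786359 in Cxcl3, 90759718 in Cxcl5 and 90769076 in Ppbp. Cxcl1 and Cxcl3 differed at 0 of the 18 bases, Cxcl2 differed from both at 2, and Cxcl5 and Ppbp differed from each other at 7. Likeness over the whole transcript was smaller: Cxcl2 and Cxcl3 shared 126 windows of 50 bases (5.84% of the windows of Cxcl2), which a read could match in both genes, and Cxcl1 and Ppbp shared 0 such windows with any other gene. The receptors shared more windows, though none with another of the 10 genes. Csf3r shared 455 (12.4% of its windows) with 402 genes, and Cxcr2 315 (10.4%) with 220 genes. Csf2 shared 48 (6.39%) with 1 gene.

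Promoter sequences from RefSeq (GRCm38.p6, 250 bases before to 50 after the start) were matched for 8 of the 10 genes, all but Cxcl5 and Csf3. Cxcl1, Cxcl2 and Cxcl3 are the closest relatives among the ligands, and the longest run of bases that all 3 have before the start is GGGAATTTCCC, 11 bases that hold a motif of the NF-kB type. It begins 71 bases before the RefSeq start in Cxcl1, 97 in Cxcl2 and 73 in Cxcl3, and 67, 69 and 75 bases before the GENCODE starts given above. Searched on both strands, it was present in 14 of 32851 promoters of the same length (0.0426%), and it was not in the windows of Ppbp, Cxcr2, Csf3r, Csf2 or Csf1. Its presence in the first 3 genes follows from how it was chosen. The promoter stretches of the 3 genes with the run and of Ppbp are shown so that the run and the bases around it can be compared with a neighbour that lacks it. The capitals mark the shared run, and each stretch ends before the first base of the gene in either annotation.
Cxcl1: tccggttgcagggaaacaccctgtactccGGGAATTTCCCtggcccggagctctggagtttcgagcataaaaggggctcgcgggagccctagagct
Cxcl2: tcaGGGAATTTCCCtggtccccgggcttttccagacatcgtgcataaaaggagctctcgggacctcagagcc
Cxcl3: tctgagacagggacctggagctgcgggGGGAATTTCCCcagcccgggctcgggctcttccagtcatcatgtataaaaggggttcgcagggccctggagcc
Ppbp: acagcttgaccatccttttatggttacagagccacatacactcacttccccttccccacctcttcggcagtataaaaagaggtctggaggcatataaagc
These are chr5:90891145-90891240, chr5:90903799-90903870, chr5:90786001-90786100 and chr5:90768418-90768517, all on the plus strand of GRCm38.p6. A match is a description of the sequence and says nothing of binding.

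The libraries held 8596772 to 16012246 reads in the KO group and 11745496 to 19879472 in the WT group. Levels are the authors' normalized counts, reads divided by 1 size factor per library, and 1 read was worth 0.724 to 1.41 normalized counts. A prefix that the labels do not explain, RESUB, stands before the library names of 1 KO library (KO5) and 4 WT libraries (all but WT5), and the number 170 occurs in both WT2 and WT5. RNA of skin was uneven: the summed level of 11 skin and hair markers was 47.8 to 75.6 normalized counts in the KO libraries, 903, 8472 and 4514 in WT2, WT3 and WT5, and 60.7 and 60.1 in WT1 and WT4. Skeletal muscle markers summed to 832 to 6335 in KO and to 836 to 114158 in WT, with WT2 the highest. The carcinoma identity of the tumours was seen in both groups, with Epcam, an epithelial adhesion molecule, at 551 to 1890 in KO and 1843 to 3790 in WT libraries.

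None of the 10 genes differed between KO and WT tumours past the threshold, a limma p adjusted over all 17940 genes tested of 0.05. The fitted limma differences were above 0 for all 10, with log2 values from 0.11 (Cxcl5) to 1.71 (Cxcl2) and a median of 0.35, where the median of all genes tested was -0.0081 and 48.9% lay above 0. The 10 genes were chosen with earlier results of these data known, and some are correlated with one another, so their shared direction is not a test. For Cxcl1 and Cxcl5 that direction turned with the method, to -0.22 and -0.19 in both edgeR and DESeq2, and their mean levels were lower in KO (104 against 121 in WT for Cxcl1, and 46.8 against 53.4 in WT for Cxcl5). All 10 passed the filter of a mean of 10 normalized counts over all libraries. limma called 1 of the 17940 genes (0.00557%), and that gene was lower in KO. At an unadjusted p under 0.05, limma listed 2 of the 10 genes, Csf3 and Ppbp, both higher, against 6.5% of all genes (2.83% higher in KO and 3.67% lower). edgeR called 0 of the 10 and 1 of all genes (0.00557%), and DESeq2 called 0 of the 10 and 121 of all genes (0.674%), of which 26 (0.145% of all genes) were higher in KO. Both tools also listed 2 of the 10 at an unadjusted p under 0.05, against 7.34% of all genes in edgeR and 7.87% in DESeq2. Every KO library was above every WT library for 0 of the 10, and for 0.686% of all genes.

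**Figure D1:**
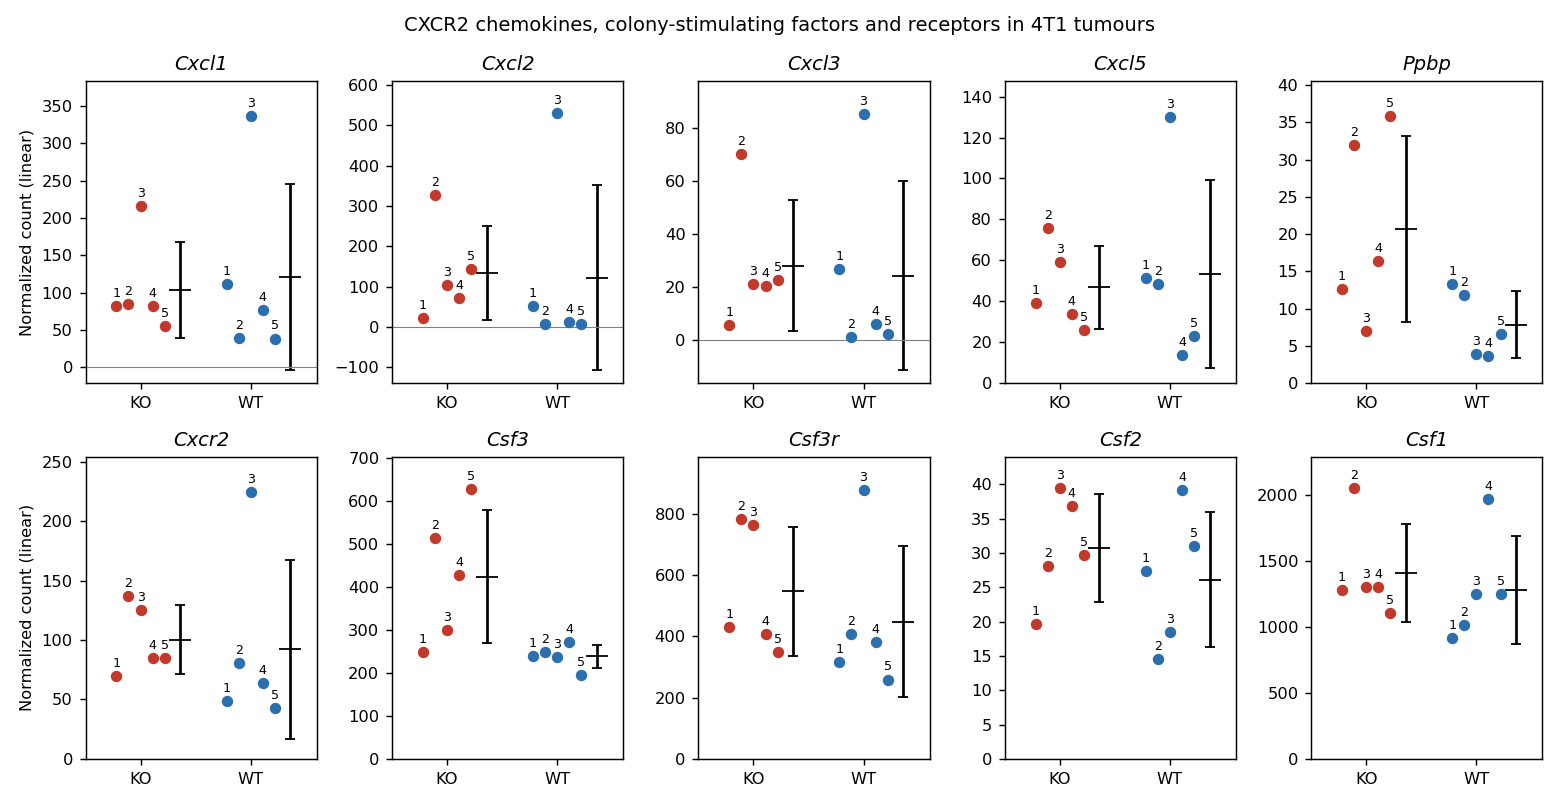
Normalized counts of the 10 genes (linear y axes, one panel per gene), with KO libraries in red, WT libraries in blue and the replicate number beside each point. The black bars give the mean ± SD of 5 libraries, and a bar that crosses 0 reflects 1 high library; WT3 is the highest point in 6 of the 10 panels, while in the Csf3 panel KO2 to KO5 lie above all WT points.

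Csf3, which encodes G-CSF, had the smallest p of the 10. It had 249, 514, 299.5, 428 and 627 normalized counts in KO1 to KO5, against 239, 249, 236, 272 and 196 in WT1 to WT5. KO2 to KO5 were above every WT library and KO1 lay among them, so the groups overlapped by 1 library. The mean was 423 ± 154 in KO libraries against 238 ± 27.4 in WT libraries (SD, n = 5 each). The WT libraries were close together, with a coefficient of variation of 11.5%, while it was 36.5% in KO. The log2 difference was 0.76 ± 0.24 (SE; 95% interval 0.23 to 1.28), a 1.69-fold higher level on this scale, with an unadjusted limma p of 0.00811 and an adjusted p of 0.587. By rank of that p, Csf3 stood at 247 of 17940. The adjusted p was 0.417 in edgeR and 0.118 in DESeq2, and with sample weights in limma, which count variable libraries less, Csf3 passed at 0.86 (limma adjusted p = 0.0391; 0.0391 to 0.999 over all alternatives). With those weights limma called 404 of the 17940 genes (2.25%), 229 of them higher in KO (1.28%). A term for the prefix put the difference at 1.10. It was 1.33 among libraries that carry the prefix (1 KO library against 4 WT) and 0.86 among those that do not (4 KO libraries against 1 WT). The 1 KO library with the prefix, KO5, was the highest of all 10 for Csf3. The 1 WT library without it, WT5, was the lowest. These values therefore rest on KO5 and WT5 and cannot separate the prefix from the spread between libraries.

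Csf3r, the G-CSF receptor of neutrophils and their precursors, was highest in WT3, a library whose Csf3 (236) was near the WT mean (238). It had 431, 783, 765, 408 and 348 normalized counts in KO1 to KO5, against 315, 408, 877, 383 and 259 in WT1 to WT5. WT3 was the highest of all 10 libraries, KO2 and KO3 came next, and the other 7 lay between 259 and 431. The fitted log2 difference was 0.34 ± 0.33 (SE; 95% interval -0.37 to 1.05, limma adjusted p = 0.936) and was 0.62 without WT3. Across the 10 libraries Csf3 and Csf3r had a Pearson r of 0.185 (Spearman rho 0.176; adjusted permutation p = 0.844 and 0.916).

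Cxcr2, the receptor that neutrophils use to follow all 5 ligands, had a pattern close to that of Csf3r. It had 69.9, 137, 125, 84.8 and 84.7 normalized counts in KO1 to KO5, against 49.0, 81.1, 224, 63.7 and 43.2 in WT1 to WT5. WT3 was again the highest library, and without it 4 of the 5 KO libraries would be above all WT libraries. Between KO and WT its log2 difference was 0.36 ± 0.39 (SE; 95% interval -0.50 to 1.21, limma adjusted p = 0.949), and 0.74 without WT3 (limma adjusted p = 0.517). The ratio of Cxcr2 to Csf3r counts within a library was 0.190 ± 0.0348 in KO libraries against 0.189 ± 0.0409 in WT libraries (SD, n = 5 each), a difference far smaller than the spread between libraries.

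Cxcl2 (MIP-2), a ligand made early by activated macrophages and neutrophils, had the widest range of the 10 on the log2(normalized count + 1) scale. It had 20.97, 327, 104, 72.6 and 144 normalized counts in KO1 to KO5, against 52.4, 6.37, 531, 12.3 and 6.65 in WT1 to WT5. The lowest 3 libraries were WT2, WT5 and WT4, the highest was WT3, and KO2 was next. Within KO the highest library was 15.6 times the lowest, and within WT 83.3 times. The low ends rest on few reads, with 15 in KO1, 7 in WT2 and 6 in WT5. The log2 difference was 1.71 ± 1.06 (SE; 95% interval -0.58 to 4.01, limma adjusted p = 0.872), while the means were 134 ± 117 in KO libraries against 122 ± 230 in WT libraries (SD, n = 5 each). The size of the difference rested on the scale and on WT3: it was 0.15 in edgeR and 0.14 in DESeq2, which compare means, and 2.76 in limma without WT3 (adjusted p = 0.410). Without WT3 the WT mean was 19.4 ± 22.1 (SD, n = 4), and KO2 to KO5 were above the highest of these 4 WT libraries.

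Cxcl3, the neighbour most like Cxcl2 in pattern, had 5.59, 70.3, 21.1, 20.4 and 22.7 normalized counts in KO1 to KO5, against 26.6, 0.911, 85.4, 5.79 and 2.22 in WT1 to WT5. These rest on 4 to 75 reads in the KO libraries and on 1 to 88 reads in the WT libraries, so WT2, at 1 read, and WT5, at 2, lie under the floor of 3 reads. WT3 and KO2 were again the highest pair. Its log2 difference was 1.15 ± 0.94 (SE; limma adjusted p = 0.903), 1.92 without WT3 and 0.22 in DESeq2.

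Cxcl1 (KC), a ligand made by epithelial and stromal cells as well as by leukocytes, had 82.5, 84.4, 217, 81.8 and 55.0 normalized counts in KO1 to KO5, against 111, 39.2, 337, 76.7 and 38.8 in WT1 to WT5. WT3 and KO3 stood apart, and the other 8 libraries lay between 38.8 and 111. On the log2 scale the difference was 0.12 ± 0.54 (SE; 95% interval -1.05 to 1.29, limma adjusted p = 0.982). Its direction was not stable, as edgeR and DESeq2 turned it and it was -0.18 without KO3, -0.15 without WT2, -0.16 without WT5 and 0.62 without WT3.

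Cxcl5 (LIX), made largely by epithelial cells, had 39.1, 76.0, 59.1, 33.7 and 26.2 normalized counts in KO1 to KO5, against 51.5, 48.3, 130.1, 13.8 and 23.3 in WT1 to WT5. WT3 was the highest and WT4 the lowest library, with the KO libraries between them. On the log2 scale it differed by 0.11 ± 0.51 (SE; limma adjusted p = 0.983), and apart from edgeR and DESeq2 it turned to -0.27 without WT4, -0.092 without KO2, -0.087 without WT5 and -0.0022 without KO3, while it was 0.52 without WT3.

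Ppbp, whose protein is stored in platelets and cut there to the active ligand, was the 1 ligand that was low in WT3. It had 12.6, 31.9, 7.03, 16.4 and 35.8 normalized counts in KO1 to KO5, against 13.3, 11.8, 3.88, 3.62 and 6.65 in WT1 to WT5. KO2, KO4 and KO5 were above every WT library, and KO1 and KO3 lay within the WT range. The values rest on 105 reads over the KO group and 44 over the WT group. The log2 difference was 1.24 ± 0.51 (SE; 95% interval 0.13 to 2.34), with an unadjusted limma p of 0.0307 and an adjusted p of 0.725 (0.524 in edgeR and 0.375 in DESeq2). It was higher in KO in all 24 alternatives that could be run, from 0.90 with sample weights to 2.20 among the libraries with the prefix. The latter value rests on KO5, the highest library for Ppbp, as the 1 KO library. Pf4, the neighbour of Ppbp and a platelet chemokine that does not act on CXCR2, had 83.9 to 265 normalized counts in KO libraries against 34.3 to 201 in WT libraries (log2 0.95 ± 0.44 SE, limma adjusted p = 0.772). Of the 12 platelet and megakaryocyte markers 4 could be analysed, 3 with higher and 1 with lower values in KO. Their summed level was 137 to 323 in KO and 79.8 to 273 in WT. Pf4 is itself 1 of these 4 and the largest part of the sum, with 265 of 323 in KO5 and 201 of 273 in WT2. The others, Nrgn, Itga2b and Gp1ba, were low and had log2 differences of 0.41, 0.17 and -0.50. The part of platelets in the Ppbp values was not tested.

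Csf2, which encodes GM-CSF, was low throughout. It had 19.6, 28.1, 39.4, 36.8 and 29.7 normalized counts in KO1 to KO5, against 27.4, 14.6, 18.4, 39.1 and 31.0 in WT1 to WT5. The groups covered nearly the same range, with a log2 difference of 0.27 ± 0.32 (SE; 95% interval -0.43 to 0.97, limma adjusted p = 0.950). Csf2 shares 96 exonic bases with the antisense gene Gm12223, which had 5.11 to 32.3 normalized counts in KO and 5.46 to 21.4 in WT. The use of strand in the counting is not given in the sources used here, so reads in the shared bases cannot be told apart.

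Csf1, which encodes M-CSF, had 1279, 2052, 1299, 1304 and 1101 normalized counts in KO1 to KO5, against 915, 1013, 1247, 1964 and 1251 in WT1 to WT5. KO2 and WT4 stood apart at the top, and the other 8 libraries lay between 915 and 1304. The log2 difference was 0.16 ± 0.23 (SE; 95% interval -0.34 to 0.65, limma adjusted p = 0.958), the narrowest interval of the 10. The ratio of Csf1 to Csf3 counts within a library was 3.65 ± 1.30 in KO libraries against 5.36 ± 1.46 in WT libraries (SD, n = 5 each), and its ranges overlapped.

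**Figure D2:**
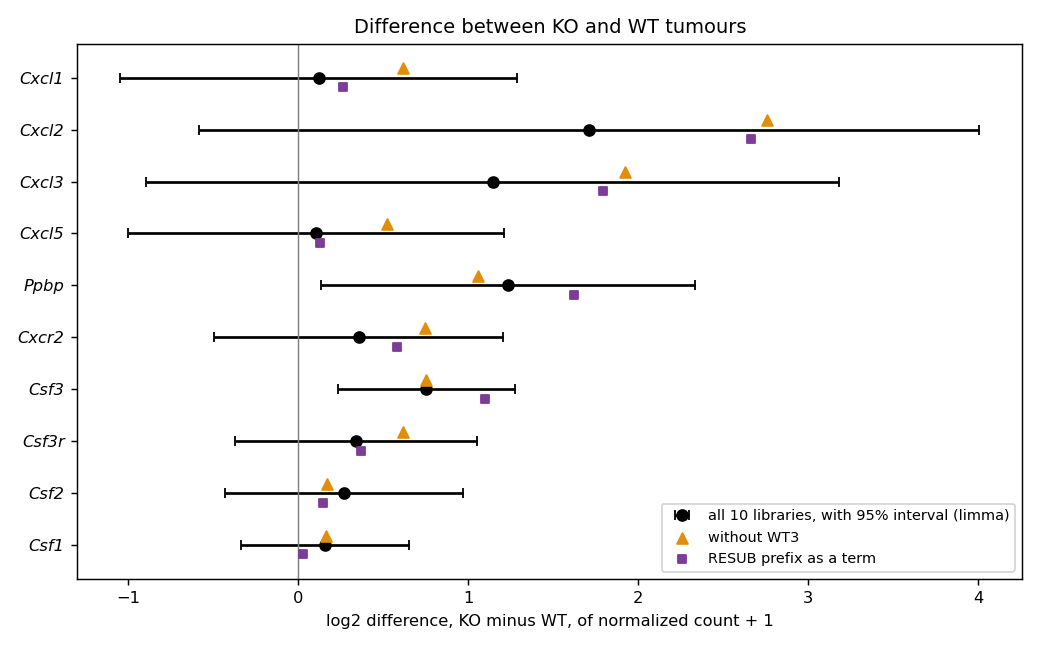
Log2 difference (x axis, KO minus WT, of normalized count + 1) for each of the 10 genes (y axis), with the limma estimate from all 10 libraries and its 95% interval (black circles), the estimate without WT3 (orange triangles) and the estimate with the RESUB prefix as a term (purple squares). The intervals of Csf3 (0.23 to 1.28) and Ppbp (0.13 to 2.34) lie above 0, the other 8 include 0, and Cxcl2 moves from 1.71 to 2.76 without WT3.

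WT3 was the highest of the 10 libraries for Cxcl1, Cxcl2, Cxcl3, Cxcl5, Cxcr2 and Csf3r, was ninth for Ppbp, Csf3 and Csf2, and seventh for Csf1. Without WT3, the log2 differences of these 6 genes were 0.52 to 2.76, and of the 10 genes 0 passed in limma. WT3 also had the highest summed level of skin and hair markers (8472 normalized counts). Its mean log2 level of carcinoma and epithelial markers was the highest (9.97) and that of monocyte and macrophage markers the lowest (9.74). That of neutrophil markers was 6.78, within the range of the other libraries, but single neutrophil markers went both ways. S100a8 (835) and S100a9 (830) were higher in WT3 than in any other library, while Ltf (13.6) was lower than in any other. The part of these in its ligand and receptor levels was not tested. Without WT2, WT3 and WT5, the libraries with skin markers, the difference was 0.65 for Csf3, 0.57 for Csf3r, 0.79 for Cxcr2, 1.85 for Cxcl2, 0.69 for Cxcl3, 0.68 for Cxcl5 and 1.20 for Ppbp. It was 0.0022 for Cxcl1, 0.035 for Csf1 and -0.13 for Csf2, and 0 of the 10 passed in limma. Only WT1 and WT4 were left in the WT group for this comparison, so that the lack of a call says little.

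**Figure D3:**
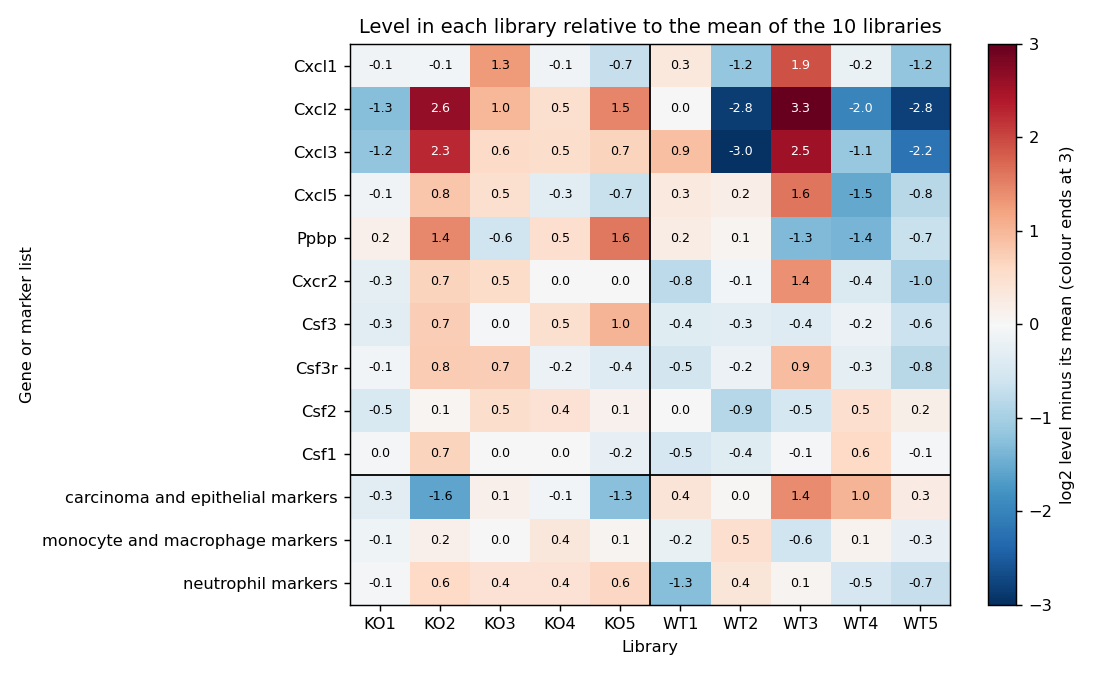
Log2 level of each gene and mean log2 level of 3 marker lists (one line each) in the 10 libraries (columns, KO at the left), as the difference from its mean over the libraries; red is above that mean, blue below, and colours end at 3. Cxcl2 and Cxcl3 have the widest range, WT3 is red for 6 of the 10 genes, and Csf3 and Ppbp are deepest red in KO5.

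Per kilobase of the longest coding transcript, so that genes can be compared, Csf1 had the highest level over the 10 libraries, at 321 ± 89.8 normalized counts per kilobase (SD, n = 10). Csf3 followed at 234 ± 101, Csf3r at 143 ± 63.7, Cxcl1 at 118 ± 98.5 and Cxcl2 at 68.7 ± 92.5. The place of Cxcl2 rested on WT3: its mean was 44.6 ± 55.6 without that library (SD, n = 9), and its median of 33.6 over all 10 lay below the 36.1 of Csf2. Csf2 (35.5 ± 10.9), Cxcl5 (31.8 ± 21.3), Cxcr2 (31.6 ± 17.7) and Cxcl3 (25.7 ± 28.6) lay together, and Ppbp was the lowest at 13.2 ± 10.3. Csf1 was above Csf3 in 9 of 10 libraries, Csf3 above Csf3r in 8, Csf3r above Cxcl1 in 7 and Cxcl1 above Cxcl2 in 8. The lower neighbours changed places between libraries, with the higher-ranked gene above the next in 4 to 7 of 10, so their order did not exceed the spread. With the length of all annotated exons in place of the coding transcript, Cxcl1 was at 59.9, Cxcl2 at 61.8 and Cxcl3 at 7.46 per kilobase, so the places of Cxcl1 and Cxcl2 also depend on which transcripts were counted.

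The mix of the 5 ligands differed from library to library. Per kilobase, Cxcl1 made up 21.5% to 65.3% of their summed level in KO (median 47.3%) and 43.7% to 76.7% in WT (median 54.1%). Cxcl2 made up 8.07% to 42.8% in KO (median 21.5%), against 3.94% to 35.3% in WT (median 6.31%). By this length Cxcl2 exceeded Cxcl1 in KO2 and KO5, and with the length of all annotated exons it did so in WT3 as well (1.43 times Cxcl1). Cxcl3 made up 3.94% to 16.8% in KO and 1.03% to 12.1% in WT, and Cxcl5 8.02% to 17.8% in KO and 8.32% to 35.2% in WT. Ppbp made up 1.87% to 15.9% in KO and 0.443% to 12.6% in WT. The summed level was 140 to 412 per kilobase in KO and 67.3 to 809.6 in WT, with medians of 207 in KO and 105 in WT. The averages were 258 ± 116 in KO libraries against 257 ± 314 in WT libraries (SD, n = 5 each), where WT3 alone set the WT value, which was 119 ± 66.7 without it (SD, n = 4). Ranges of the groups overlapped for every share, and no test of the shares was run.

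**Figure D4:**
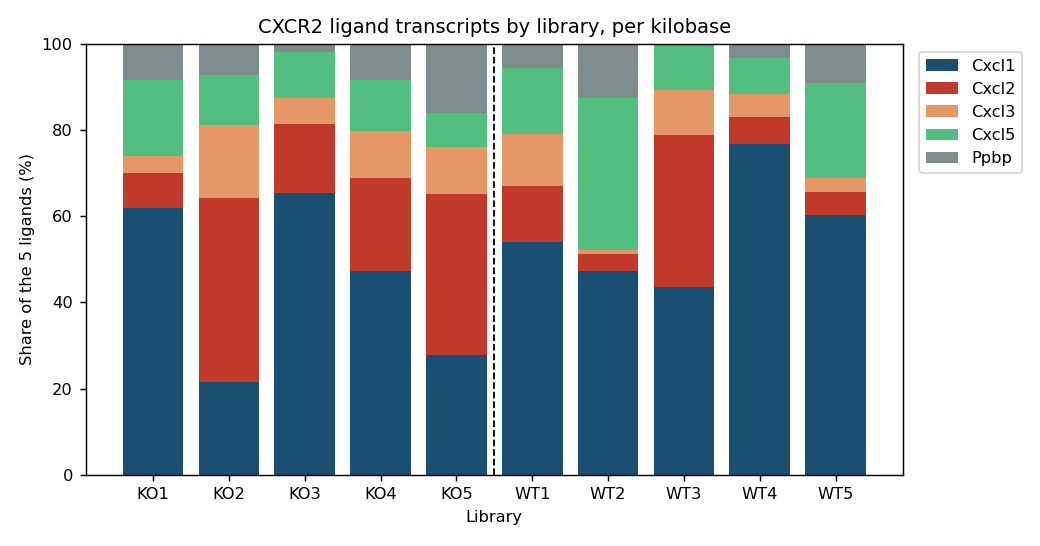
Share of each of the 5 CXCR2 ligands in their summed level per kilobase (y axis, %) in each library (x axis, KO libraries left of the dashed line). Cxcl1 is the largest share in 8 of the 10 libraries; Cxcl2 is the largest in KO2 (42.8%) and KO5 (37.4%).

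Across the 10 libraries, 45 pairs among the 10 genes were compared by correlation of their log2 levels, with p-values from 100000 permutations adjusted over the pairs. The sign was positive for 34 pairs and negative for 11, and 2 pairs passed by Pearson's r. Cxcl2 and Cxcl3 had r = 0.969 (adjusted permutation p = 0.00113) and Spearman rho 0.915 (adjusted p = 0.0275). Without WT2 and WT3, the libraries farthest from the median, r was 0.957, and for deviations from the group means it was 0.968. Cxcl3 rests on 1, 2, 4 and 8 reads in WT2, WT5, KO1 and WT4. Reads in the 126 windows that Cxcl2 and Cxcl3 share could count for either gene, and their part in this r was not tested. Cxcr2 and Csf3r had r = 0.938 (adjusted permutation p = 0.00113) and rho 0.855 (adjusted p = 0.0684), with r = 0.897 without WT3 and WT5 and 0.933 for deviations from the group means. Cxcl2 had r = 0.794 with Cxcr2 (adjusted permutation p = 0.0791) and Csf3 had r = 0.784 with Ppbp (adjusted permutation p = 0.0791), and neither passed. Cxcl1 and Csf3 had r = -0.107 (adjusted permutation p = 0.951), and WT3, the library with the most Cxcl1, was ninth of 10 for Csf3. The libraries with the RESUB prefix and those without it are 5 each, and for deviations from the means of these 2 sets r was 0.969 for Cxcl2 with Cxcl3 and 0.952 for Cxcr2 with Csf3r.

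**Figure D5:**
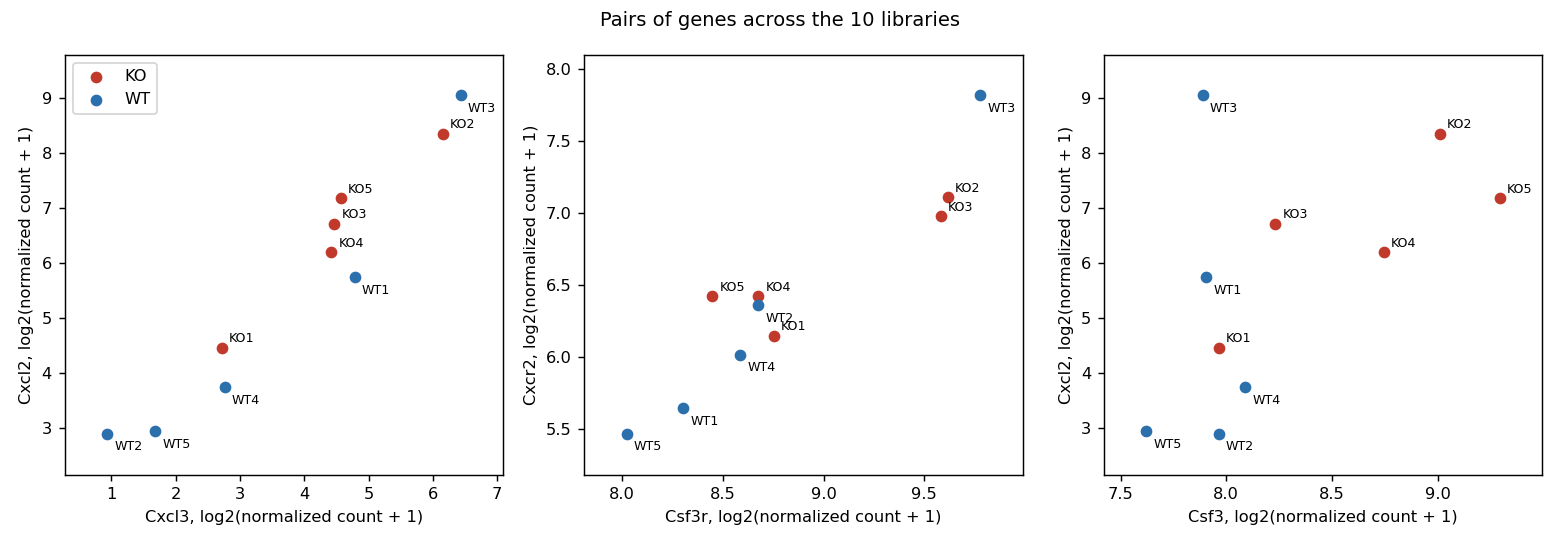
Log2(normalized count + 1) of 3 pairs of genes, 1 point per library, KO in red and WT in blue. Cxcl2 against Cxcl3 (r = 0.969) and Cxcr2 against Csf3r (r = 0.938) follow a line through both groups. In Cxcl2 against Csf3 (r = 0.533) WT3 lies far from the others, high in Cxcl2 and among the other WT libraries in Csf3.

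The genes most alike in pattern were taken as the 3 with the highest r among 13877 protein-coding genes tested, over the 10 libraries; such a search always returns high values. For Cxcl2 they were Gpr135 (0.970), Saxo2 (0.965) and Ccl3 (0.941), the last a chemokine of macrophages, and Saxo2 and Gpr135 also led for Cxcl3 (0.970 and 0.939). For Cxcr2 they were Mxd1 (0.962), Apol6 (0.949) and Hdc (0.945), the histamine-forming enzyme, and Hdc also led for Csf3r (0.938). For Csf3 they were Rnaseh1 (0.945), Sema4f (0.943) and B2m (0.937), the light chain of class I molecules. For Ppbp they were Gemin2 (0.949), Fermt2 (0.947) and Nostrin (0.939). For Csf1 they included Stk10 (0.938) and Trappc12 (0.920), and for Cxcl1 they were Porcn (0.945), Morn1 (0.938) and Snrnp70 (0.927). The values were lower for Cxcl5, at 0.901 for Mmp10, a secreted protease, and for Csf2, at 0.870 for Pramef8.

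Genes around the axis were followed as lists, none of which held a gene past the limma threshold. Of 15 inducers of the ligands and of Csf3 that were tested, 9 had higher and 6 lower values, with a median log2 difference of 0.22. The cytokines among them with the smallest p were Tnf, at 92.9 ± 24.0 normalized counts in KO libraries against 64.1 ± 16.5 in WT libraries (log2 0.53 ± 0.24 SE, limma adjusted p = 0.751), and Il1b, at 1158 ± 377 in KO libraries against 710 ± 483 in WT libraries (log2 0.84 ± 0.38, limma adjusted p = 0.754). Il1b was high in WT3 as well, at 1531, where the other WT libraries had 351 to 753. Il1rn, the antagonist of IL-1, and Tlr4, the receptor of endotoxin, had differences of 0.53 and 0.37.

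Of 16 NF-kB factors and feedback genes 7 had higher and 9 lower values, with a median of -0.063. Nfkbiz, a co-factor for a subset of NF-kB targets, had a difference of 0.46 ± 0.26 (SE), and Nfkb2, the precursor of p52, one of -0.44 ± 0.26, with limma adjusted p of 0.836 and 0.850. Of 10 factors that act on the decay of cytokine transcripts 1 had a higher and 9 a lower value, but the differences were small, from -0.22 to 0.20. Zfp36, which binds AU-rich elements and speeds decay, had 366 ± 64.1 normalized counts in KO libraries against 447 ± 186 in WT libraries (SD, n = 5 each; limma adjusted p = 0.957).

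Downstream of the receptors, 5 of 13 genes of G-CSF receptor signalling had higher and 8 lower values (median -0.058), and among 18 genes of CXCR2 signalling 9 were higher and 9 lower (median 0.00065). Ptpn11, the phosphatase SHP2, had a difference of -0.26 ± 0.18 (SE; limma adjusted p = 0.885). Of the 5 partners of the colony-stimulating factors, 2 had higher and 3 lower values. Il34, the other ligand of the M-CSF receptor, had 175 ± 20.3 normalized counts in KO libraries against 217 ± 50.7 in WT libraries (limma adjusted p = 0.877), and Csf2rb, the shared beta chain of the GM-CSF receptor, had 1243 ± 222 in KO libraries against 1234 ± 337 in WT libraries (adjusted p = 0.987). Csf2rb has a near-identical copy, Csf2rb2, between which the counting could split reads. Some genes named from these lists share exonic bases with another gene, so their values are uncertain: Nfkb2 299 with Psd, Cxcl10 133 with Art3 and Fpr2 48 with Fpr3, while Il1b, Il34 and Zfp36 share 25 to 125 with antisense genes.

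Other chemokine genes of the CXC family and their receptors were tested in 14 cases, with 10 higher and 4 lower (median 0.32). Cxcl9, a ligand of CXCR3 that is induced by interferon gamma, had 2331 ± 815 normalized counts in KO libraries against 1087 ± 310 in WT libraries (SD, n = 5 each). Its log2 difference was 1.08 ± 0.26 (SE) with a limma adjusted p of 0.415 and an edgeR adjusted p of 0.371, and DESeq2 called it (adjusted p = 0.0231). Cxcr6, a receptor of T cells, and Cxcl10, another CXCR3 ligand, had differences of 0.83 ± 0.24 and 0.56 ± 0.25, with limma adjusted p of 0.487 and 0.751. Cxcl9 and Cxcl10 are chemokines without the ELR motif.

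Values of neutrophil markers, genes of the cells that carry Cxcr2 and Csf3r, were mostly higher in KO. The fitted differences of both receptors were above 0 but did not pass, and WT3 was the highest library for each. Of 25 neutrophil markers tested 24 had higher values in KO and 1, Mmp9, a lower one, with a median log2 difference of 0.90. In limma, edgeR and DESeq2 0 of them passed. An unadjusted limma p under 0.05 was reached by 6, all higher, where 2.83% of all genes were higher in KO at that level. Their summed level was 8983 to 15016 normalized counts in KO (median 10218) and 5655 to 14473 in WT (median 6607). Lcn2, Padi4 and Mmp9 weighed most in these sums. WT4, at 14253, had 3450, 4435 and 5014 of these genes in that order, but 103 of S100a8 and 97.7 of S100a9. The mean log2 level, in which each marker counts alike, was 7.10 ± 0.279 in KO libraries against 6.29 ± 0.649 in WT libraries (SD, n = 5 each). Of the defining markers, Ly6g was at 8.39 to 26.7 in KO, and in WT at 0 (WT1) to 18.2 (WT2), so the groups overlapped. S100a8 and S100a9 were highest in WT3. Fpr2, a formyl peptide receptor of neutrophils, had 317 ± 158 in KO libraries against 148 ± 92.6 in WT libraries (log2 1.16 ± 0.45 SE, limma adjusted p = 0.704), and Cd177, a neutrophil surface protein, 40.6 ± 12.6 in KO libraries against 20.8 ± 13.3 in WT libraries (1.09 ± 0.41, adjusted p = 0.685). Of 17 monocyte and macrophage markers 14 had higher and 3 lower values (median 0.20), with summed levels of 45223 to 73964 in KO and 25302 to 84807 in WT. Of 10 T cell markers 10 had higher values (median 0.60), with summed levels of 501 to 1188 in KO and 295 to 695 in WT.

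Values of carcinoma and epithelial markers were mostly lower in KO. Of 20 carcinoma and epithelial markers 19 had lower values in KO and 1, Lcn2, a higher one, with a median of -0.98. In limma and edgeR 0 of them passed, and DESeq2 called 2, where it called 0.674% of all genes. An unadjusted limma p under 0.05 was reached by 15, all lower, where 3.67% of all genes were lower in KO at that level. Their summed level was 19067 to 24940 normalized counts in KO and 23014 to 41328 in WT, and Krt5 was at 0 in KO2 and KO5. Lcn2 is also on the neutrophil list. Krt14 and Krt5 were at 4869 and 2020 in WT3, the library highest in skin and hair markers. Their highest KO values were 381 and 81.8. In WT1 and WT4, Krt14 was at 1134 and 422, and Krt5 at 30.8 and 83.3. The part of skin RNA in the values of this list was not tested. Of 11 skin and hair markers 11 had lower values in KO (median -4.14), and Dsg1a and Dsc3 were at 0 in all KO libraries. Mast cell markers had lower values in 4 of 5 (median -1.35), skeletal muscle markers in 10 of 10 (median -1.77) and adipocyte markers in 7 of 8 (median -1.42). Fibroblast markers (4 higher and 6 lower, median -0.038) and endothelial markers (5 higher and 3 lower, median 0.049) showed no common direction.

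Each gene was also set against the mean log2 level of 3 marker lists across the 10 libraries, 30 relations in all, and 1 passed after adjustment. Ppbp was inversely related to the carcinoma and epithelial markers, with r = -0.931 (adjusted permutation p = 0.0114) and Spearman rho -0.830 (adjusted p = 0.0858). It remained at r = -0.833 without KO2 and KO5, the libraries with the lowest carcinoma markers, and at -0.883 for deviations from the group means, though 0 of the 30 relations passed after adjustment in either of these. For deviations from the means of the libraries with and without the prefix it was -0.948, and it was the 1 of the 30 that passed. Csf3 had r = -0.764 with the same markers (rho -0.721; adjusted permutation p = 0.164 and 0.172), and only -0.277 without KO2 and KO5, so that relation rests on those libraries; for deviations from the group means it was -0.511. Csf3 had r = 0.683 with the neutrophil markers (rho 0.818; adjusted permutation p = 0.262 and 0.0858), and 0.676 without WT1 and WT5, but 0.388 for deviations from the group means. Cxcr2 had r = 0.648 with the neutrophil markers (rho 0.733; adjusted permutation p = 0.320 and 0.172), and 0.302 without WT1 and WT5, but 0.658 for deviations from the group means. The part of these cell types in the differences of Csf3, Cxcr2 and Ppbp between KO and WT was not tested. Neither was the part of skin RNA in the carcinoma and epithelial marker level.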

How the data were processed

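The deposited table holds signal values, gene-level normalized counts for 18012 genes in 10 libraries, plus 35 spike-in entries (0.151% to 0.545% of reads) that name no gene and were left out. Whole reads were recovered: 100% of values are whole multiples of 1 read within 0.0001 of a read, and the size factors equal median-of-ratios factors (ratio 1.0). Total RNA from frozen sections was freed of ribosomal RNA and copied with random primers that carry molecular identifiers, per the labels' protocols. The submitters' processing notes name bcl2fastq 2.17 for base calls and GRCm38 as build. The aligner, the counter, strand use and identifier use are not given in the sources used here, so the floor of 3 reads per library covers counting error only.

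Symbols came from GENCODE M21 (17953 genes matched). The 17940 genes whose mean reached 10 normalized counts were tested (72 did not) by limma 3.58.1 in R 4.3.3, fitted with an intensity trend to log2(normalized count + 1), with Benjamini-Hochberg adjustment over all of them at 0.05. The added 1 shrinks the fold changes of low genes on this scale. For genes with a wide spread the scale can also give larger differences than DESeq2, as for Cxcl3 (1.15 in limma against 0.22 in DESeq2). As alternatives, since the deposited values are not counts, the recovered reads were tested in edgeR 4.0.16 and in DESeq2 1.42.0. Other alternatives changed the pseudocount, filter, scaling, sample weights, RESUB prefix, replicate block and libraries. The limma step was tested on simulated data. Correlations used two-sided permutation tests (scipy 1.17.1), exact where 8 or 9 libraries remained.

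The genes and lists were chosen with earlier results of these data known. Named list genes are up to 4 per list with the smallest limma p, of which some are described; defining markers were named beside results. A check of the knocked-out gene and the values of some genes that this rule names are not reported here. WT2 and WT5, both numbered 170, differed (chi-square per degree of freedom 142, against 38.4 to 177 among WT pairs) and were kept as 2 libraries. Plots were made in Python 3.11.15 (matplotlib 3.10.9).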

Additional observations from a re-analysis of the deposited data

Results flagged for a closer look

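Within the groups of 5 libraries, 7 values of the 10 genes stood far from the other 4 of their group: the gap to the nearest exceeded 0.71 of the group's range, Dixon's 95% critical value. Chance gives this in about 1 in 20 groups of normally distributed values; 20 groups were tested, and the rate for skewed counts such as these was not measured. In KO these were Cxcl1 in KO3 at 217 normalized counts, Cxcl3 in KO2 at 70.3 and Csf1 in KO2 at 2052. In WT they were all in WT3, with Cxcl1 at 337, Cxcl2 at 531, Cxcr2 at 224 and Csf3r at 877. These genes are not independent of one another, since Cxcl2 with Cxcl3 and Cxcr2 with Csf3r were correlated across the libraries.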

How the results depend on the processing

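Of 247 values of the 10 genes under alternatives, 226 kept their direction and side of the threshold and 20 reversed; Cxcl2, Cxcl3, Ppbp and Csf3 never reversed. Cxcl1 was at -0.22 in edgeR and DESeq2, -0.19 with sample weights, -0.90 in prefixed libraries and -0.15 with the libraries numbered 170 averaged, and ran from -0.18 to 0.62 with 1 library left out. Cxcl5 was at -0.19 in edgeR and DESeq2 and -0.80 in prefixed libraries, and ran from -0.27 to 0.52 with 1 left out. In prefixed libraries, with 1 KO library assumed to vary like the WT ones, Cxcr2 was at -0.038, Csf3r at -0.39 and Csf1 at -0.16. Csf2 was at -0.050 in the libraries without the prefix and -0.13 without WT2, WT3 and WT5.

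With sample weights 1 of the 10 genes, Csf3, passed (log2 0.86); 0 did under every other alternative run, including each library left out. The count over all genes, 1, was 121 in DESeq2, 404 with sample weights, 52 without the prefixed libraries (4 KO libraries against WT5 alone, which is assumed to vary like the KO ones and holds skin RNA), 0 with them alone (KO5 alone against 4 WT), 0 with those numbered 170 averaged, 0 without WT2, WT3 and WT5, and 0 to 3 with 1 library left out (3 without WT2; 0 without KO1, KO2, KO3, WT3, WT4 or WT5). The count of relations with markers, 1, was 0 without the 2 farthest libraries, 0 on deviations from group means, 1 on deviations from the means of the libraries with and without the prefix (chosen after seeing the data), and 1 to 2 with 1 library left out (2 without WT3). The filter at a mean of 50 left no value for Csf2, Cxcl3 and Ppbp. The cause was not tested.

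Replicate numbers did not pair the samples: same-numbered libraries had correlations of -0.229 to 0.522, and only those numbered 3 matched each other best. With the replicate block the counts stayed at 0 and 1, and Csf3 was at 0.76 (limma adjusted p = 0.518). Low depth limits Cxcl3 and Ppbp most, with 1 to 88 and 4 to 41 reads per library. It also limits Cxcl2 in WT2 and WT5, with 7 and 6 reads.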
